A study of Mus musculus with 4 samples.

Results

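Open chromatin was examined at 9 receptor genes that guide T cells to tissues: the chemokine receptor genes Ccr4, Ccr6, Ccr8, Ccr9, Cxcr3, Cxcr4, Cxcr5 and Cxcr6, and Ptgdr2, which encodes a receptor for prostaglandin D. The genes were chosen by name. Each was given a window of its GENCODE gene record with 20 kb on each side, and every ATAC-seq peak that touched a window was kept. ATAC-seq marks open chromatin through a transposase that inserts sequencing adapters where DNA is accessible. Joined across 4 libraries, the peaks in the windows formed 86 regions, of 93679 regions in the genome. One of the 86 lay in the windows of both Ccr9 and Cxcr6, which are neighbours. 5 of the 9 genes are on chromosome 9. The others are on chromosomes 1 (Cxcr4), 17 (Ccr6), 19 (Ptgdr2) and X (Cxcr3).

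The cells were naive CD4+ T cells (CD62LhighCD44lowCD25-) sorted from the spleens of 7 week old male wild-type C57BL/6 mice. All of them were activated for 48 h by an anti-CD3 antibody bound to the plate (5 µg/ml) and a soluble one against CD28 (1 µg/ml), in human TGF-β1 (5 ng/ml) and mouse IL-2 (10 ng/ml), the conditions that induce regulatory T cells (iTreg). Mouse IL-4 (15 ng/ml) was present for iTreg+IL-4 and absent for iTreg+PBS, with 2 libraries for each. The study describes its replicates as biologically independent pooled samples. So the p-values given here measure the spread between pools, and not between mice. The comparison asks which of these loci were open in developing iTreg and whether the peaks called there differed when IL-4 was added.

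Chemokine receptors are G protein-coupled receptors that bind small secreted chemokines and direct cells along their gradients. CCR7 and the sphingosine phosphate receptor S1PR1 govern the entry and exit of naive T cells at lymph nodes, and activation and polarization replace this traffic with receptors for inflamed or barrier tissues. CCR4, CCR8 and the PTGDR2 protein (CRTH2) are known from Th2 cells, and CCR4 and CCR8 also from regulatory T cells. CXCR3 and CXCR6 are known from Th1 cells, CCR6 from Th17 cells, CCR9 from cells bound for the small intestine, CXCR5 from follicular helper cells and CXCR4 from nearly all lymphocytes. Accessible promoters and distal regions near such genes often hold regulatory elements, but accessibility is not expression, and RNA was not analysed here.

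A peak in these data is a position on GRCm38 (mm10) with a −log10 q-value and a height, which were not scaled between libraries. In iTreg+PBS the 2 lists were 77064 and 56645 peaks long, and in iTreg+IL-4 78670 and 67743. Pairs of values are given throughout in the order of replicates 1 and 2. Read depth is unknown, so a missing peak shows only that the enrichment fell short of what the peak caller asked for. To compare libraries, each peak was ranked within its own list. The rank is the percentage of peaks in that list with a higher −log10 q, so that a small value is a strong peak. iTreg+PBS replicate 2 had the shortest list, and it also gave the weakest rank in 47 of the 60 receptor regions called in all 4 libraries (78.3%), against 67.4% of all such regions in the genome. Promoter peaks were called in all 4 libraries at 6 of 6 T cell genes (Cd3e, Cd3g, Cd4, Lck, Cd28, Cd5), against 59.9% of all protein-coding genes. Of 11 marker genes of other cells, 2 (Cd8b1, Cd14) had a promoter peak in all 4 libraries and 5 (Cd79a, Lyz2, Csf1r, Ncr1, Hbb-bs) in none. The rest had one in some libraries, Ms4a1 and Itgam in 3, Cd8a in 2 and Klrb1c in 1.

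Most of the chromatin called open near the receptor genes was shared by all 4 libraries. Of the 86 regions, 60 (69.8%) were called in every library, against 51.0% of all regions in the genome, 5 in 3, 12 in 2 and 9 in a single library. Of the 12 regions called in 2 libraries, 9 were called in replicate 1 of both conditions, the libraries with the longer lists. This is 75.0%, against 55.4% of the regions called in 2 libraries over the genome. Regions within 1 kb of any annotated start site numbered 21, and 17 of them (81.0%) were called in all 4 libraries, against 73.3% of such regions in the genome. A further 65 regions lay farther from any start site. Of these, 43 (66.2%) were called in all 4 libraries, against 43.7% in the genome. The distal regions had a median width of 480 bases, against 404 bases for all distal regions. Their median rank, over those called in all 4 libraries, was 28.0% and 40.8% in iTreg+PBS and 28.2% and 30.3% in iTreg+IL-4. For all distal regions the medians were 37.9% and 51.4%, and 37.2% and 42.9%. So the receptor windows held distal peaks that were shared more often and ranked higher than distal peaks at large. The regions near a start site ranked no higher than their genomic counterparts, with medians of 20.4% and 27.1% in iTreg+PBS and 16.5% and 19.3% in iTreg+IL-4, against 15.9% and 19.9%, and 15.9% and 17.1%. These shares and medians are descriptions without a test, since neighbouring regions share libraries and loci.

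**Figure D1:**
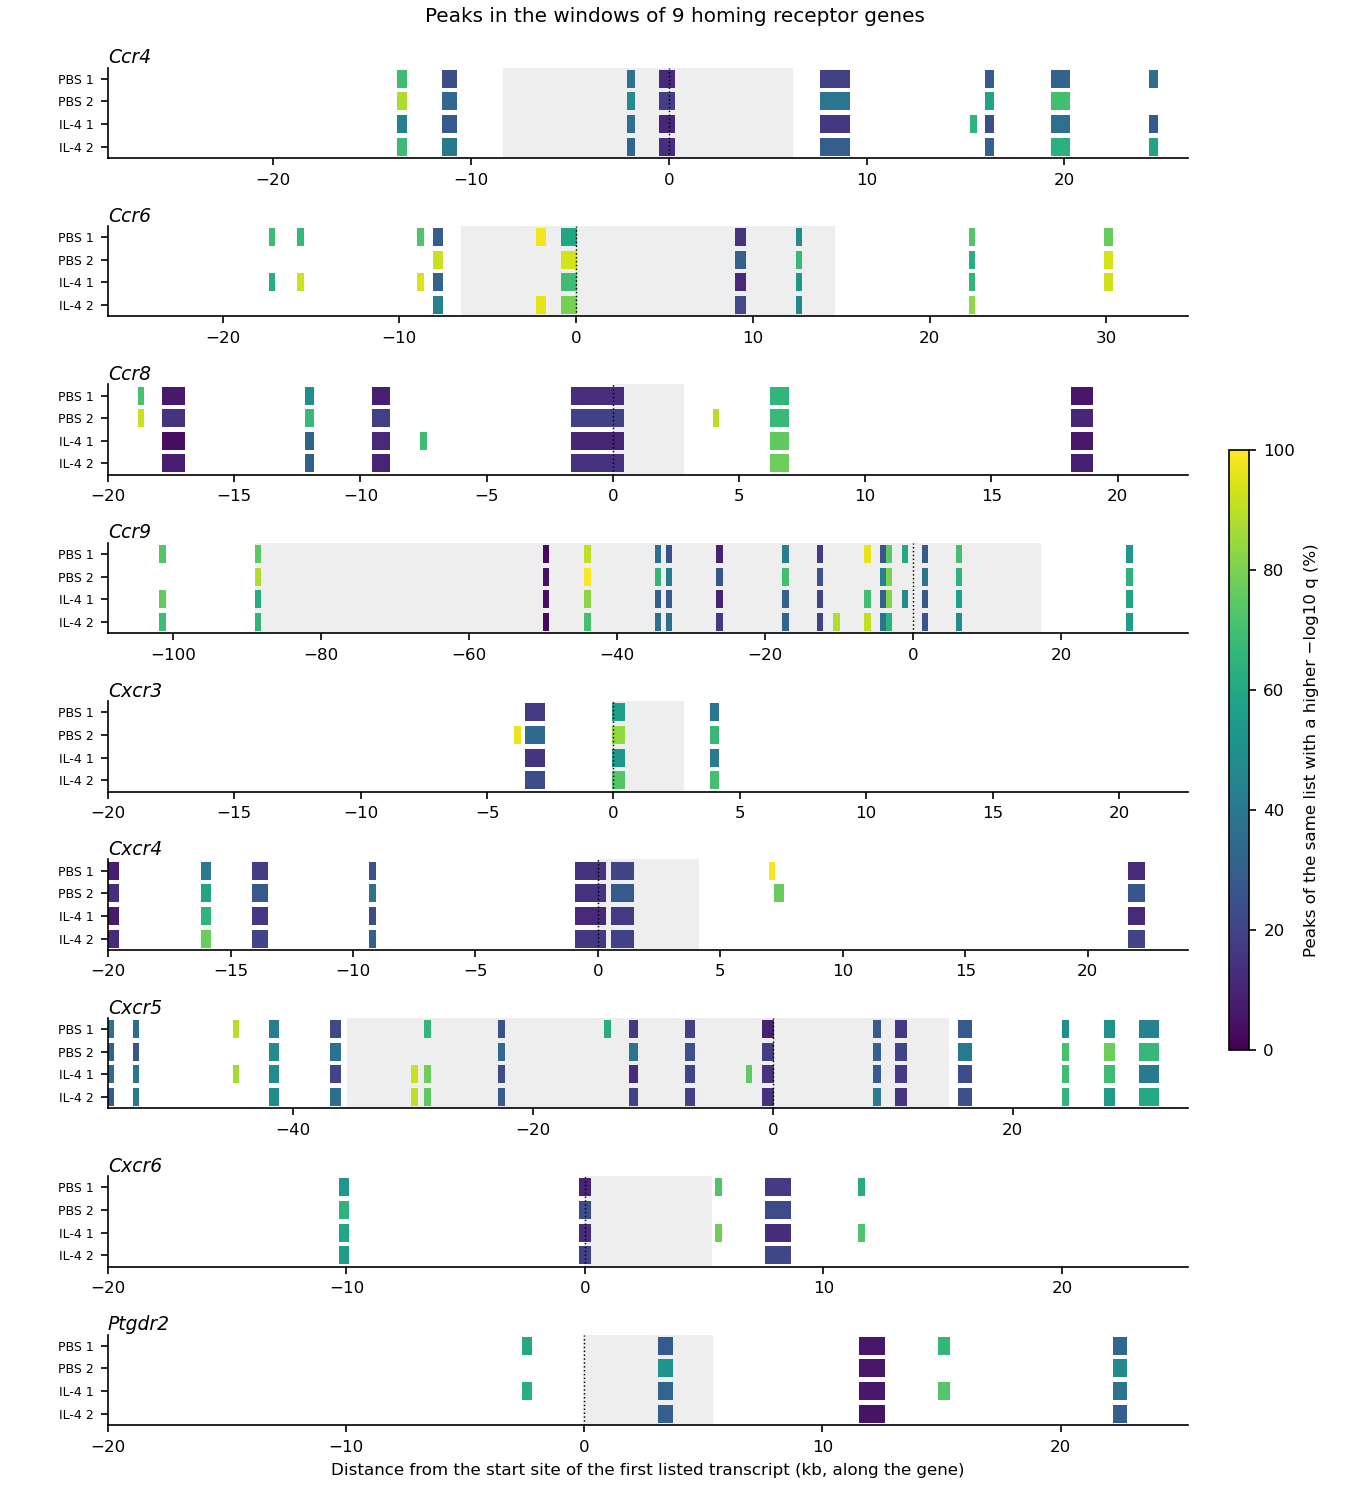
Regions called in the window of each receptor gene. Each panel is a gene, the horizontal axis is the distance (kb, along the gene) from the start site of its first-numbered GENCODE transcript, the grey band is the gene record, each line of blocks is a library (PBS 1 and 2, iTreg+PBS; IL-4 1 and 2, iTreg+IL-4), and colour gives the rank within the list (percent of peaks with a higher −log10 q). Blocks are drawn at the width of the joined region, or slightly wider for narrow ones. Most blocks stand in all 4 lines, as 60 of the 86 regions did, and Ptgdr2 has no block at its start.

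The amount of open chromatin in the 9 windows did not differ between conditions beyond the spread of the replicates. Peaks covered 42288 and 32067 bases in iTreg+PBS and 42471 and 38858 bases in iTreg+IL-4. The means were 37178 ± 7227 and 40665 ± 2555 bases (SD, n = 2), a difference of 3487 bases (p = 0.667, exact two-sided permutation test). No such test of 2 libraries against 2 can go below a p of 0.33. A single library set the sign, because without iTreg+PBS replicate 2 the difference was -1624 bases. The number of peaks was 80 and 69 in iTreg+PBS and 78 and 68 in iTreg+IL-4, with means of 74.5 ± 7.78 and 73.0 ± 7.07 (SD, n = 2), with overlapping values (exact two-sided permutation test, p = 0.667). Against the length of the lists, 10.4 and 12.2 of every 10000 peaks lay in the windows in iTreg+PBS and 9.91 and 10.0 in iTreg+IL-4, values that did not overlap (exact two-sided permutation test, p = 0.333, the smallest possible). With every list held to its best 56645 peaks, the windows held 70 and 69 peaks in iTreg+PBS and 64 and 64 in iTreg+IL-4, a difference of -5.50 (exact two-sided permutation test, p = 0.333). Bases in peaks within 1 kb of the receptors' own start sites came to 8553 ± 1241 and 9450 ± 122 (SD, n = 2), and those over 1 kb from any start site to 24823 ± 5838 and 27450 ± 2402, each with p = 0.667 in the same exact test. By gene, the windows of Cxcr5 and Ccr9, the longest gene records at 50.1 and 106 kb, held the most bases in peaks. Cxcr5 had 9742 ± 1276 in iTreg+PBS and 10554 ± 492 in iTreg+IL-4, and Ccr9 had 5713 ± 1390 and 7041 ± 621. Cxcr3 had the fewest, 1368 ± 325 and 1330 ± 229 bases. The conditions overlapped at 7 of the 9 genes. Ccr8 had more bases with IL-4, 5201 and 4905 in iTreg+PBS against 5400 and 5437 in iTreg+IL-4, as did 19.6% of the windows of 18535 protein-coding genes with a peak. Cxcr4 had fewer, 4510 and 4259 against 4249 and 4023, as did 2.29% of these windows. Each had the smallest possible p, 0.333, in the same exact test, before any adjustment for the 9 genes.

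**Figure D2:**
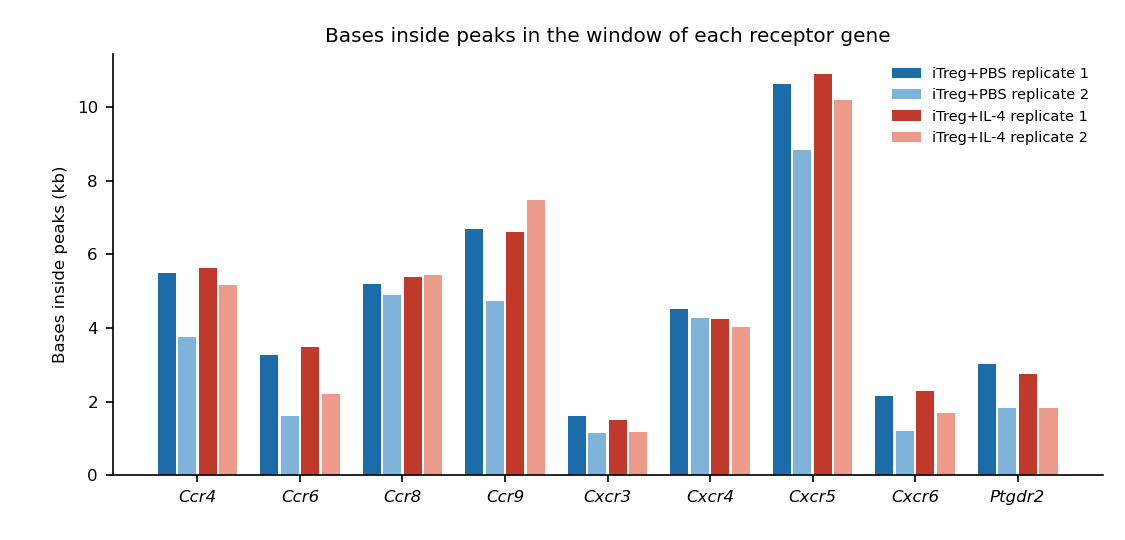
Bases inside peaks (kb) in the window of each receptor gene, with 1 bar for each library. Cxcr5 has the tallest bars, from 8840 bases in iTreg+PBS replicate 2 to 10902 in iTreg+IL-4 replicate 1, and Cxcr3 the shortest, and iTreg+PBS replicate 2 has the lowest bar for 7 of the 9 genes and a tied one at Ptgdr2.

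A promoter peak, within 1 kb of a start site of the gene, was called in all 4 libraries at 8 of the 9 receptor genes, against 59.9% of 21938 protein-coding genes. The 8 genes fell into a strong and a weak set. In the strong set, Ccr4, encoding the receptor for CCL17 and CCL22, ranked 11.8% and 18.2% in iTreg+PBS and 10.8% and 13.4% in iTreg+IL-4. Ccr8, encoding the receptor for CCL1 and known from Th2 and tissue regulatory T cells, ranked 13.3% and 19.3%, and 9.79% and 14.1%. Cxcr4, encoding the receptor for CXCL12, ranked 14.4% and 14.7%, and 11.0% and 16.4%. For Cxcr5, whose product binds CXCL13 and leads cells into follicles, the ranks were 9.19% and 17.6%, and 14.4% and 14.0%. Cxcr6, encoding the receptor for CXCL16, ranked 10.1% and 23.8%, and 12.6% and 18.8%. Cxcr5 also had weaker promoter regions at distal start sites, 36.5 kb upstream at 22.2% and 37.5%, and 20.7% and 36.2%, and 28.8 kb upstream at 66.4% in iTreg+PBS replicate 1 and 78.0% and 75.3% in iTreg+IL-4, with no call in iTreg+PBS replicate 2. The ranks of the 5 best promoters overlapped between conditions, and also among the genes, with means over the 4 libraries of 13.5% ± 3.28 for Ccr4, 13.8% ± 3.47 for Cxcr5, 14.1% ± 3.93 for Ccr8, 14.1% ± 2.26 for Cxcr4 and 16.3% ± 6.18 for Cxcr6 (SD, n = 4). As a yardstick, the best promoter peak of the 13148 protein-coding genes with one in all 4 libraries had a median rank of 9.72% and 12.0% in iTreg+PBS and 9.79% and 10.2% in iTreg+IL-4. So even the strong receptor promoters lay mostly in the weaker part of the promoters called open.

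The weak set was Ccr6, Ccr9 and Cxcr3, and no value of it overlapped with the strong set. Ccr6, encoding the receptor for CCL20, ranked 59.1% and 93.3% in iTreg+PBS and 68.8% and 79.0% in iTreg+IL-4. Cxcr3, encoding the receptor for CXCL9, CXCL10 and CXCL11, ranked 57.3% and 84.1%, and 53.2% and 72.7%. The conditions overlapped for both genes. Ccr9, encoding the receptor for the gut chemokine CCL25, ranked 60.3% and 64.5% in iTreg+PBS but 48.1% and 47.4% in iTreg+IL-4, a pair of ranges that did not overlap. This best rank was read from different regions: 1.1 kb upstream of the start in replicate 1 of each condition, and 6.2 kb downstream, near the start of another transcript of the gene, in replicate 2 of each. The region 1.1 kb upstream had no peak in replicate 2 of either condition. At 6.2 kb downstream the ranks among the shared regions alone overlapped between conditions, at 91.6% and 74.4%, and 82.9% and 65.5%. By the start sites of RefSeq, Ccr9 had a promoter peak in the replicate 1 libraries alone, and 7 of the 9 receptor genes had one in all 4 libraries. When only the upper 50% of each list was kept, the count was 5, the strong set. This follows from the ranks above and adds no support to the grouping.

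Ptgdr2 was the exception, with no promoter peak in any library and by either annotation. The region nearest to its start lay 2.4 kb upstream and was called in replicate 1 of iTreg+PBS (60.5%) and of iTreg+IL-4 (63.6%). A region 3.4 kb downstream, over the coding exon of Ptgdr2, was called in all 4 libraries and ranked 28.0% and 51.2%, and 32.2% and 29.7%. The strongest peak in the window of Ptgdr2 belonged to the start of a neighbour, Ccdc86, at 12.1 kb downstream, where all 4 ranks lay between 4.95% and 6.34%. Whether a weak peak at the Ptgdr2 start would have been called at the depth of these libraries is unknown.

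**Figure D3:**
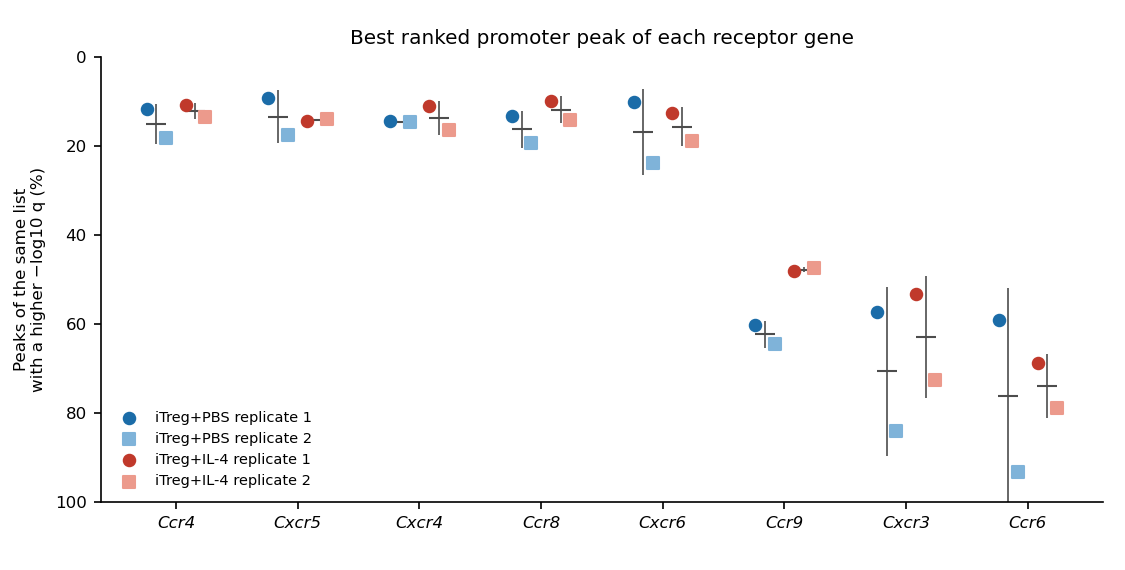
Best ranked promoter peak of the 8 receptor genes that had one, as the percentage of peaks in the same list with a higher −log10 q, with strong peaks at the top of the axis. Points are libraries, and the bars are the mean ± SD of the 2 libraries of a condition, which at Ccr9 come from different regions. Ccr4, Cxcr5, Cxcr4, Ccr8 and Cxcr6 lie between 9.19% and 23.8%, Ccr9, Cxcr3 and Ccr6 between 47.4% and 93.3%, and Ptgdr2 had no promoter peak and is not drawn.

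The promoters themselves can be read from RefSeq (GRCm38.p6), which matched 8 of the 9 receptor genes with 9 promoters of 300 bases. They held a median of 4.00 CpG dinucleotides, from 2 to 20, against 7.00 over 32851 promoters, and a median GC content of 49.3% against 52.7%. The promoters of Ccr4, Ccr8 and Cxcr4 are shown because every base of the 300 was inside a peak in each of the 4 libraries, and that of Ptgdr2, the gene without a promoter peak, for comparison. None of the 300 bases was in a peak in any library for Ptgdr2, Ccr9 and the upstream of 2 promoters of Ccr6. Each is printed on the strand of the gene, up to its first annotated exon: 232 bases for Ccr4 (chr9:114496563-114496794, reverse strand), 231 for Ccr8 (chr9:120091883-120092113, forward strand), 250 for Cxcr4 (chr1:128592300-128592549, reverse strand) and 250 for Ptgdr2 (chr19:10936910-10937159, forward strand). Capitals mark an AP-1 word (TGANTCA) in Ccr4 and a GATA word (AGATAA, read on the other strand) in Ccr8. These words stand upstream in 6.75% and 9.99% of all promoters. The promoters of Cxcr4 and Ptgdr2 held none of the 8 words searched.
Ccr4 promoter: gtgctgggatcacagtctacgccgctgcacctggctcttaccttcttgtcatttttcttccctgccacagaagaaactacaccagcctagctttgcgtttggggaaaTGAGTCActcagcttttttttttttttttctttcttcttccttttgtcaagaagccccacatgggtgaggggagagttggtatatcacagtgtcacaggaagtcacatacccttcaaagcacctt
Ccr8 promoter: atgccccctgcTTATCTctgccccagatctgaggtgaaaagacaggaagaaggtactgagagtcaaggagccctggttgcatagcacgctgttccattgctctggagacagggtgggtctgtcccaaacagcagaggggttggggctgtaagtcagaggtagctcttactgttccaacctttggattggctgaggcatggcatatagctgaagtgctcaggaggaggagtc
Cxcr4 promoter: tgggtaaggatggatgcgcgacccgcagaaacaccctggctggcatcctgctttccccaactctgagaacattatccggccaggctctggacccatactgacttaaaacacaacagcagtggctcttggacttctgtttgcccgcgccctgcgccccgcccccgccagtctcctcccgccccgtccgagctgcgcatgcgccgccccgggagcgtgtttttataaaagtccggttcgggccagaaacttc
Ptgdr2 promoter: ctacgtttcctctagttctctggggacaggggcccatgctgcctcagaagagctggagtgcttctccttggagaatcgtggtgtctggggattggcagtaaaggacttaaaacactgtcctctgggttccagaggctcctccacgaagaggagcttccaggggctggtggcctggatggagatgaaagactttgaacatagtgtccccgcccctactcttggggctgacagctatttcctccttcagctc
Cxcr4 had the most CpG of the 9 promoters, 20, while Ccr4 had 3, Ccr8 had 2 and Ptgdr2 had 5, so that the strong set included promoters at both ends of this range.

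The best distal region of a gene is taken here as the one with the best rank in its weakest library. Away from the start sites, every receptor gene had at least 2 regions called in all 4 libraries, and at Ccr8, Cxcr4, Ccr6, Cxcr3 and Ccr9 this distal region ranked above the promoter in every library. At Ccr8 it lay 17.4 kb upstream, between genes (chr9:120074285-120075193), and ranked 6.33% and 14.6% in iTreg+PBS and 3.75% and 7.69% in iTreg+IL-4. A second one, 9.2 kb upstream, ranked 8.97% and 18.4%, and 11.3% and 9.94%. At Cxcr4 the best lay 19.8 kb upstream, at the edge of the window (chr1:128611810-128612294), with ranks of 7.99% and 13.2%, and 6.97% and 11.6%. Ccr6 and Cxcr3 paired a weak promoter with a strong distal region. For Ccr6 the latter lay 9.3 kb downstream over a noncoding part of an exon, at 14.4% and 29.9%, and 11.1% and 21.6%. For Cxcr3 it lay 3.1 kb upstream between genes (chrX:101737013-101737805), at 17.0% and 34.4%, and 15.5% and 23.1%. None of these ranks separated the conditions.

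At the other genes the best distal regions ranked lower than those of Ccr8 and Cxcr4. Ccr4 had one 8.4 kb downstream of the start, at 19.3% and 38.9% in iTreg+PBS and 15.7% and 29.5% in iTreg+IL-4. For Cxcr5 the best lay 10.7 kb downstream, in an intron, at 16.2% and 20.6%, and 17.3% and 15.3%. Cxcr6 had one 8.1 kb downstream, in an intron of Fyco1, at 17.4% and 22.0%, and 13.1% and 21.3%. For Ccr9 it lay 12.6 kb upstream of the start, in an intron of its longest transcript, at 17.4% and 25.3%, and 20.1% and 19.8%. Another intronic region of Ccr9, 26.2 kb upstream, was just behind in its weakest library but ranked better in the other 3, at 9.05% and 25.7%, and 9.26% and 16.7%. Ptgdr2 had one 22.5 kb downstream at 33.4% and 47.3%, and 38.2% and 29.4%, while its exonic region at 3.4 kb ranked better in replicate 1 of each condition and weaker in replicate 2. The promoter regions nearest to the 1 kb limit lay 950 and 920 bases (Ccr9) and 944 bases (Cxcr5) from a start site. The nearest distal ones lay 1064 (Ccr6, 7.8 kb upstream) and 1254 bases (Ccr9, 1.6 kb downstream) away. Those at 950 and 920 bases gave the best promoter rank of Ccr9 in every library, so these ranks rest on the limit. Within 0.5 kb, the count of receptor genes with a promoter peak in all 4 libraries remained 8.

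Few receptor regions were called in only 1 condition. Both iTreg+IL-4 libraries and neither iTreg+PBS library had a peak at a single region, which is 1.16% of the 86 regions, against 2.60% of all regions. It lay at a distal start site of Cxcr5, 29.9 kb upstream of the principal one, over a noncoding part of an exon (chr9:44556070-44556472), and it was weak, at 91.8% and 90.0%. RefSeq does not reach this start site. With RefSeq gene records, of which that of Cxcr5 is shorter (14.7 kb against 50.1 kb), no region of this kind was left. The opposite pattern was also seen at a single region, again 1.16%, against 0.699% of all regions. It lay 18.7 kb upstream of Ccr8 between genes (chr9:120073295-120073466), 172 bases wide, at 70.4% and 92.0%. It is a close neighbour of the strong region 17.4 kb upstream, which was called in all 4 libraries. Neither of the single regions was left when the upper 50% of each list was kept, which follows from their ranks. Leaving out any 1 library gave 1 to 5 such regions for IL-4 and 2 to 4 for its absence. These were 1.20% to 5.95% and 2.33% to 4.76% of the receptor regions. Over all regions the shares moved as well, from 3.41% to 13.6% and from 1.5% to 8.21%, and under each omission that for IL-4 was higher than at the receptor genes.

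Of the 60 regions called in all 4 libraries, 9 ranked higher in both iTreg+IL-4 libraries than in both iTreg+PBS libraries (15.0%), against 19.7% of all shared regions in the genome. In the other direction, 4 ranked lower with IL-4 (6.67%), against 5.18%. Both shares are near those of all regions. The lists differ in length, and ranks among the shared regions alone gave 12 higher (20%) and 7 lower (11.7%), against 14.3% and 12.7% of all shared regions. So the share that ranked higher lay below that of all regions by the first ranking and above it by the second. With each library compared only with the one of the same replicate number in the other condition, 27 ranked higher (45.0%) and 6 lower (10.0%), against 43.4% and 12.3% of all shared regions.

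These counts moved with the libraries used, and so did the shares over all shared regions. Without iTreg+PBS replicate 1, 48 receptor regions ranked higher and 5 lower, or 80.0% and 8.33%, against 70.8% and 9.94% of all regions shared by the other 3 libraries. Without iTreg+PBS replicate 2 the counts were 11 and 24, or 17.2% and 37.5%, against 24.3% and 36.0%. Without iTreg+IL-4 replicate 1 they were 17 and 10, or 28.3% and 16.7%, against 30.2% and 17.9%, and without iTreg+IL-4 replicate 2 they were 28 and 6, or 45.9% and 9.84%, against 48.4% and 12.5%.

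The largest difference was at Ccr8. A region between genes 12.0 kb upstream of its start (chr9:120079902-120080260) ranked 49.7% and 67.3% in iTreg+PBS and 31.5% and 30.1% in iTreg+IL-4, a mean difference of -27.7 percentage points. Both regions that flank it, at 17.4 and 9.2 kb upstream, were stronger and had ranks that overlapped between conditions. In the deposited −log10 q-values the region stood at 25.4 and 8.53 without IL-4 and at 52.6 and 50.7 with IL-4. It also ranked higher with IL-4 by height and among the shared regions alone, which are rankings of the same peaks.

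Of the 13 regions called in all 4 libraries in the GENCODE window of Ccr9, 5 ranked higher with IL-4. Of all shared regions 19.7% did so, and 3 of the 5 also ranked higher among the shared regions alone. The first of them, 17.3 kb upstream in an intron of the longest transcript (chr9:123749697-123750132), ranked 42.0% and 69.8% in iTreg+PBS against 30.9% and 32.8% in iTreg+IL-4, a difference of -24.0 points. A weak intronic region 44.0 kb upstream ranked 90.4% and 99.4% against 82.6% and 70.6%. The region 88.5 kb upstream, at the first start of Ccr9 and also at starts of Slc6a20a and Gm17200, ranked 74.7% and 88.6% against 61.8% and 65.4%. The regions 44.0 and 88.5 kb upstream lie in the window only through the GENCODE record of 106 kb, against 16.2 kb in RefSeq. With RefSeq records, 7 receptor regions ranked higher with IL-4, in place of 9. The remaining pair lay downstream of the principal start. The promoter region at 6.2 kb ranked 70.0% and 64.5% against 57.2% and 47.4%. At 1.6 kb the ranks were 27.7% and 38.6% against 27.6% and 25.9%, so that replicate 1 was nearly level in the 2 conditions. The strongest region of the window, at the start of the neighbouring gene Lztfl1, ranked at 4.49% or better in all 4 libraries, and its ranks overlapped.

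The other 3 regions that ranked higher were spread over 3 genes. One lay 13.5 kb upstream of Ccr4, over an exon of Trim71, at 68.5% and 87.5% against 43.5% and 68.1%, where 68.5% and 68.1% were again nearly level. One in the intron of Cxcr4, 1.0 kb downstream of the start, ranked 20.4% and 27.9% against 16.5% and 19.3%. One 16.0 kb downstream of the Cxcr5 start, over an exon of Bcl9l, ranked 27.9% and 40.7% against 22.4% and 24.3%. Of the 9, the regions at Ccr8, at 88.5, 44.0 and 17.3 kb upstream of Ccr9, in the intron of Cxcr4 and at 16.0 kb downstream of Cxcr5 also ranked higher by height and among the shared regions alone, 6 in all. These rankings use the same peaks and libraries, so they are no independent support. The share of all regions that keep their direction is not given.

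Of the 4 regions that ranked lower with IL-4, the one with the largest difference lay 16.0 kb upstream of Cxcr4 between genes (chr1:128608066-128608485). It ranked 41.7% and 58.8% in iTreg+PBS and 64.9% and 77.0% in iTreg+IL-4, a difference of 20.7 points. By height its ranks overlapped between conditions. Its neighbours 19.8 and 13.8 kb upstream ranked at 27.6% or better in every library and overlapped too. A region 6.6 kb downstream of the Ccr8 start ranked 65.3% and 67.5% against 75.7% and 77.5%. For Cxcr5, a region 53.1 kb upstream, at the start of the noncoding gene Gm47230, ranked 35.7% and 27.1% against 39.3% and 40.5%, and one 41.6 kb upstream 42.4% and 47.5% against 48.0% and 48.2%, where 47.5% and 48.0% were nearly level. The region downstream of Ccr8 and the one at Gm47230 also ranked lower by height and among the shared regions alone, which are rankings of the same peaks. Ccr8, Cxcr4 and Cxcr5 thus each had regions in both directions by the first ranking. At Cxcr5 both lower ones lie in the window only through the GENCODE record of 50.1 kb, against 14.7 kb in RefSeq. With RefSeq records, 2 receptor regions ranked lower with IL-4, in place of 4.

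**Figure D4:**
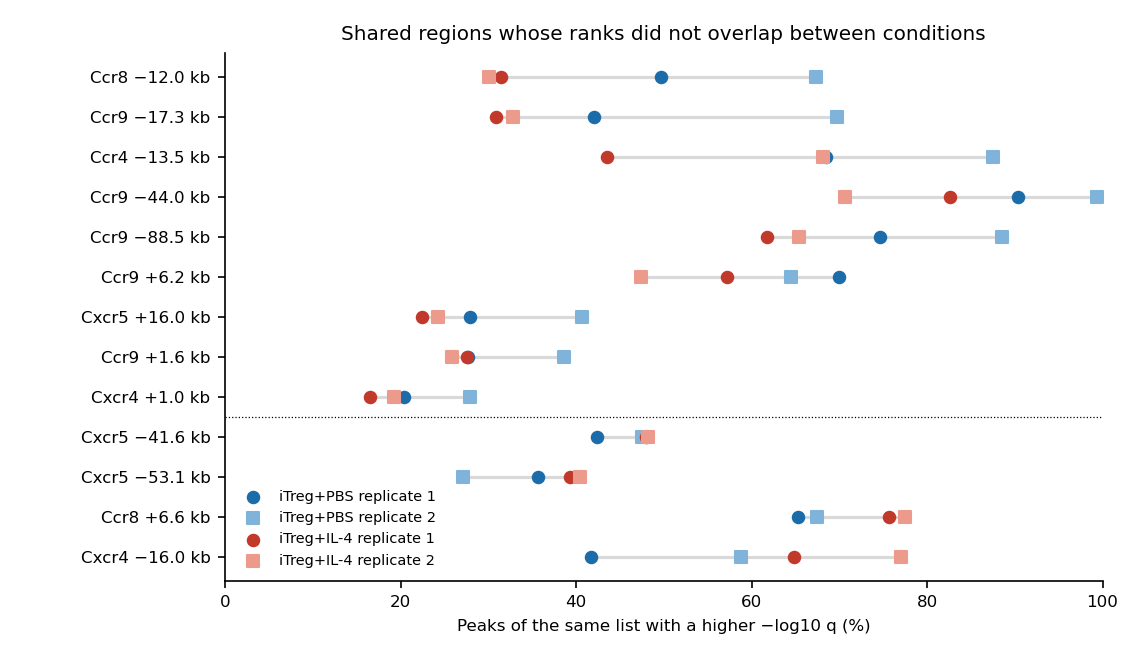
The 13 receptor regions called in all 4 libraries whose ranks did not overlap between conditions, named by gene and by distance from the start site. The horizontal axis is the percentage of peaks in the same list with a higher −log10 q, and points are libraries. Above the dotted line the 9 regions that ranked higher with IL-4 have both red points left of both blue ones, and below it the 4 that ranked lower have them on the right. The widest separation is at Ccr8 12.0 kb upstream.

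The middle 200 bases of 5 distal regions are printed on the forward strand of GRCm38: the region with the largest difference towards a higher rank with IL-4 (Ccr8, 12.0 kb upstream, chr9:120079981-120080180), the best ranked distal region in 3 of the 4 libraries (Ccr8, 17.4 kb upstream, chr9:120074639-120074838), the region with the next largest difference (Ccr9, 17.3 kb upstream, chr9:123749814-123750013), the region with the largest difference towards a lower rank (Cxcr4, 16.0 kb upstream, chr1:128608175-128608374), and the strong distal region of Cxcr3 (3.1 kb upstream, chrX:101737309-101737508). Capitals mark the words found. STAT6, the transcription factor activated by the IL-4 receptor, binds palindromes with TTC and GAA arms that stand 4 bases apart (TTCNNNNGAA). The control word has arms 3 bases apart (TTCNNNGAA), a spacing known from other STAT proteins.
Ccr8 12.0 kb upstream: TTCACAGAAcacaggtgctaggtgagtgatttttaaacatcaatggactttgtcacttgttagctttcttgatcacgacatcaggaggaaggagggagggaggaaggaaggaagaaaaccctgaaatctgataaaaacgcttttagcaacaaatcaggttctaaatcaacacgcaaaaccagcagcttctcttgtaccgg
Ccr8 17.4 kb upstream: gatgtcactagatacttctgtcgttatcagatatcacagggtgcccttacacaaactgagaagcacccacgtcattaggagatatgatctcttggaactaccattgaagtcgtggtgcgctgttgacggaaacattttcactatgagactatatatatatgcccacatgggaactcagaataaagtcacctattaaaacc
Ccr9 17.3 kb upstream: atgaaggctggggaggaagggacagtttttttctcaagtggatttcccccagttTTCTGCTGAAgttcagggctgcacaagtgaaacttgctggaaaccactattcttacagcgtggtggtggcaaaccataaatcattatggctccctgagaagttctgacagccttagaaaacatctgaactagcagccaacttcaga
Cxcr4 16.0 kb upstream: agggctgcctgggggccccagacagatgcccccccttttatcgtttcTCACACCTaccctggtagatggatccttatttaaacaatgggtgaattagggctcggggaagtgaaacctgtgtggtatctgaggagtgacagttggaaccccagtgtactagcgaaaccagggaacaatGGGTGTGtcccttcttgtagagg
Cxcr3 3.1 kb upstream: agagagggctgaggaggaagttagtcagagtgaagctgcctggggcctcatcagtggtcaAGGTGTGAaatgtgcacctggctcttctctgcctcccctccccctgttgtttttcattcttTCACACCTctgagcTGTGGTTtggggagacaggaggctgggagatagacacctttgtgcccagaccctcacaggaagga
The capitals are the control word in the region 12.0 kb upstream of Ccr8, a STAT6-type word in that of Ccr9, a T-box and a KLF word in the region of Cxcr4, and a pair of T-box words with a RUNX word in that of Cxcr3. The region 17.4 kb upstream of Ccr8 held none of the 8 words.

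Over all 86 regions, the STAT6-type word stood in the middle 200 bases of 6 (6.98%), against 5.84% of all regions on assembled chromosomes, and the control word also in 6 (6.98%), against 8.48%. So it was about as frequent near the receptor genes as elsewhere. The 6 regions lay at Ccr6 (2.0 kb upstream), Ccr9 (17.3 kb upstream and 1.6 kb downstream), Cxcr5 (31.4 kb downstream) and Ptgdr2 (15.1 and 22.5 kb downstream). Both regions of Ccr9 ranked higher with IL-4, but the one 1.6 kb downstream was nearly level in replicate 1 (27.7% and 27.6%) and overlapped between conditions among the shared regions alone (44.5% and 45.5%, and 45.1% and 36.6%). Those of Cxcr5 and the farther one of Ptgdr2 were called in all 4 libraries with overlapping ranks, and the other 2 were called in 2 libraries each, split over the conditions. The AP-1 word (TGANTCA) stood in 14.0% of the receptor regions and 12.9% of all, the RUNX word (TGTGGTT) in 9.30% and 8.92%, the GATA word (AGATAA) in 8.14% and 7.87%, the KLF word (GGGTGTG) in 6.98% and 6.26%, and the ETS word (CCGGAAG), frequent at CpG-rich promoters, in 1.16% and 3.32%. The T-box word (AGGTGTGA) stood in the middle 200 bases of 4 regions (4.65%), against 1.28% of all, while over whole regions it stood in 5.81% against 2.98%, and in the middle 100 bases in only 2 receptor regions (2.33%), against 0.612%. The 4 regions lay at Cxcr3 (3.1 kb upstream), Cxcr4 (16.0 kb upstream), Ccr6 (7.8 kb upstream) and Ptgdr2 (2.4 kb upstream). All words were searched on both strands, no word contains another, and stretches of the STAT6-type and control words can overlap. The base composition of the distal receptor regions was close to that of all distal regions, with a median GC content of 47.5% and 48.0%, while that of the regions near a start site was lower, at 51.5% and 59.5%.

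The wider set of homing receptors gives the setting of the 9. It comprised 26 genes of other chemokine, prostanoid and lipid receptors, and had a promoter peak in all 4 libraries at 13 genes, in some at 5 and in none at 8. Ccr7 and Ptger4, a prostaglandin E receptor gene, were the strongest, with best promoter ranks between 4.70% and 7.12% and between 4.81% and 6.55%, above all of the 9 receptor genes. S1pr1, between 14.3% and 19.3%, was level with the strong set. The windows of the 26 genes held 205 regions. Of these, 5 also lay in a window of the 9 receptor genes, among them the region 12.0 kb upstream of Ccr8, because the window of Cx3cr1 reaches that of Ccr8. Without these 5, 110 regions (55.0%) were called in every library, against 51.0% of all regions. Of the 110, 16 ranked higher with IL-4 (14.5%) and 4 lower (3.64%), against 19.7% and 5.18% of all shared regions.

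Gpr15, encoding a receptor that leads T cells to the colon, was the one gene among the 26 with a promoter peak in both libraries of a condition and neither of the other. The peak, over its coding exon (chr16:58718664-58718935), was called without IL-4 at 65.0% and 85.6% and in neither library with IL-4. No share of all protein-coding genes with this pattern is given here, so whether a single such gene among 26 is unusual cannot be told. The window of Gpr15 also held a region called only with IL-4, between genes, at 78.0% and 89.9%. The other regions called only with IL-4 were an intergenic one near Tbxa2r (66.9% and 79.7%), one over a coding exon of Ccr7 (59.1% and 82.4%), and one each in an intron of Ptger3 (80.2% and 96.0%) and of Cx3cr1 (94.2% and 90.9%). Of the 205 regions, 5 (2.44%) were thus called in the iTreg+IL-4 libraries alone and 2 (0.976%) in those of iTreg+PBS alone, one of which is the region 18.7 kb upstream of Ccr8, since the window of Cx3cr1 reaches it. Both shares are near those of all regions, 2.60% and 0.699%. All of these were weak peaks, each with more than 50% of the peaks of its list above it in every library that called it.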

How the data were processed

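ATAC-seq was performed by the authors on 2 iTreg+PBS and 2 iTreg+IL-4 libraries, sequenced on the BGISEQ-500 platform. The submitters' processing notes name Bowtie2 2.2.5, MACS2 2.1.2, bedtools 2.16.2 and mm10. Peaks were called per library. The parameters, the correction for the transposase offset and the removal of duplicates are not given in the sources used here, and their effect on positions and ranks was not tested. The deposited lists have no column names: the deposited value read as −log10 of the q-value had a minimum of 1.31 in every list, and the deposited height was read as unscaled pileup signal from its whole numbers. The lists hold no read depth, and calls are given without an interval.

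Analyses used Python 3.11.15, with numpy 2.4.6 and pandas 2.3.3, and plots were drawn with matplotlib 3.10.9. Peaks that shared at least 1 base were joined across libraries into regions. Gene records and start sites came from GENCODE vM21, promoter sequences from RefSeq (GRCm38.p6), and sequence from GRCm38. Positions count from 1. A region takes the best rank of its peaks in each library, by −log10 q. Totals were compared by an exact two-sided permutation test over the libraries. Counting was tested on simulated lists. The members, gene lists, tests and alternatives were chosen with earlier results of these data known. A few genes of the lists are not reported here. The regions named are all promoter regions of the receptors, those called in 1 condition, those whose ranks do not overlap, and the best distal region of each gene. Neighbours of these, the regions nearest to the Ptgdr2 start, those nearest to the 1 kb limit, those with a STAT6-type or T-box word and the Ccr9 region 26.2 kb upstream were also named, chosen after their values were seen. Of the other receptors, those with a promoter or region called in only 1 condition, or chosen after their values were seen (Ptger4, S1pr1), were named. Alternatives changed the part of the list used, the libraries, the flank, the overlap, the ranking, the annotation, the motif window and the pairing. No column of values in the lists was left out.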

Additional observations from a re-analysis of the deposited data

How the results depend on the processing

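The alternatives gave 84 values, of which 5 differences reversed and 29 counts moved by over 1.5 times. In the other 50, counts stayed within 1.5 times and differences kept their sign. Leaving out 1 library at a time moved the difference in bases from -1624 to 8598 and in peaks from -7.00 to 4.00. It moved the regions called only with IL-4 from 1 to 5, only without IL-4 from 2 to 4, ranked higher from 11 to 48 and ranked lower from 5 to 24, while the promoter count remained 8. The difference in peaks was 3.0 in the upper 50% of each list and 1.5 with 10 kb on each side. In the upper 50%, 0 regions were called only with and 0 only without IL-4, 3 ranked higher, 2 lower, and 5 promoters were called in all 4 libraries. Only-IL-4 regions came to 0 in lists of equal length, 2 with 50 kb on each side and 0 with RefSeq gene records, an alternative chosen after seeing the data. A reciprocal overlap of 50% gave 2 only with and 3 only without IL-4. With 10 kb on each side, 0 were called only without IL-4 and 2 ranked lower. RefSeq records gave 2 ranked lower, ranks by height 2 and ranks among shared regions 7. The STAT6-type word stood in 14 whole regions (16.3%, against 13.6% of all). The causes were not tested.

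Samples of the same replicate number deviated together (r = 0.452 across 47767 regions, which are not independent), but with 2 pairs they share only a number. With the replicate number as a block, 27 of 60 regions ranked higher and 6 lower (45.0% and 10.0%, against 43.4% and 12.3% of all shared regions), and the differences were 3487 bases and -1.50 peaks (exact test over the pairs, p = 0.50, the smallest that 2 pairs allow), with 1 region only with and 1 only without IL-4. The unknown depth limits every missing call.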
